A study of Mus musculus with 6 samples.

Results

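The transcripts of 10 genes of TNF receptor signalling, centred on Fn14 and its ligand TWEAK, were examined in mouse retinas after optic nerve crush (ONC). The genes were picked by symbol: Tnfrsf12a, Tnfsf12, Tnfrsf1a, Tnfrsf1b, Fas, Tnfrsf10b, Tnfrsf19, Tnfrsf21, Tradd and Tnf. All 10 had a row among the 35485 genes of each sample's table. Whole retinas of wild type C57BL/6 mice, male per the methods of the study and 12 weeks old, were collected 2 days after surgery. In the ONC group the optic nerve was exposed and crushed for 10 seconds at 2 mm behind the eye. In the sham group the nerve was exposed and left uncrushed. Each group held 3 samples, and each sample was a pool of RNA from 6 retinas, so that a p-value measures the spread between pools. The labels name no transgene and no other treatment in either group.

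Receptors of the TNF family are single-pass membrane proteins that bind trimeric ligands outside the cell and recruit adaptor proteins inside it. Those with a death domain, such as the products of Tnfrsf1a, Fas, Tnfrsf10b and Tnfrsf21, can engage the adaptors TRADD or FADD and caspases, whereas those without one, such as the products of Tnfrsf12a and Tnfrsf1b, bind TRAF proteins that lead to NF-kB and MAP kinases. Fn14, the product of Tnfrsf12a, is a small receptor known for its induction by growth factors and tissue injury, and it binds TWEAK, the product of Tnfsf12. In the retina and optic nerve, TNF made by glia is known to take part in the loss of retinal ganglion cells (RGCs) after injury.

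The upstream promoters of Tnfrsf12a and Tnf are shown because Tnfrsf12a was the gene called changed, and Tnf, which encodes the ligand that names the family, gave the fewest reads. Each is the 250 bases before the RefSeq start on GRCm38.p6, written 5′ to 3′ on the minus strand, with matches to the GC box or the TATA box in capitals. The Tnfrsf12a window is chr17:23677450-23677699 and the Tnf window is chr17:35202008-35202257.
Tnfrsf12a: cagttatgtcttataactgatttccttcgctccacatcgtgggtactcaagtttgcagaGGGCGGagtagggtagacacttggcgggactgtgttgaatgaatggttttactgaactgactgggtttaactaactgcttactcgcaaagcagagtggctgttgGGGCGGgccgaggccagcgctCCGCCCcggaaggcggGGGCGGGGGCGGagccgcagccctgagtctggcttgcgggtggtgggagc
Tnf: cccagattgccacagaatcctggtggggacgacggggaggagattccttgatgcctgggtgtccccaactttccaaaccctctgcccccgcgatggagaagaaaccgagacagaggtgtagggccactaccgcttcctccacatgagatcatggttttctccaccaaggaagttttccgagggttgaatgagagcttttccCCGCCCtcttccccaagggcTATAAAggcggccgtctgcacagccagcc

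The Tnfrsf12a window held 5 GC boxes (GGGCGG, read on both strands), which began 191, 87, 66, 50 and 44 bases before the start, and no TATA box (TATAAA). Among 32851 promoter windows of 27025 genes, 32.7% held at least 1 GC box and 1.93% held 5 or more. The Tnf window held 1 GC box at 49 bases and 1 TATA box at 29 bases before the start, and a TATA box was present in 12.4% of all windows. RefSeq windows were found for 7 of the 10 genes. Of these, Tnfrsf1b held 2 GC boxes, Tnfrsf21 and Fas 1 each, Tnfrsf1a none, and the 2 windows of Tnfrsf19 held 0 and 3. An AP-1 site (TGANTCA, in 6.75% of windows) was matched in Fas alone, and neither the CRE (TGACGTCA, 1.55%) nor the core of an NF-kB site searched (GGGANTTTC, 0.941%) were matched in any window of the 7 genes. The motifs did not overlap in the windows shown.

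Tnfrsf12a was the only one of these genes that was called changed, and it was upregulated. Levels are given as RPKM, the exon reads scaled to exon length and to all reads that the sample had on genes, so that genes of different length can be compared. The RPKM was 8.20, 3.89 and 4.62 in the sham samples and 22.2, 23.7 and 20.6 in the ONC samples. The lowest ONC sample was far above the highest sham sample, and sham replicate 1 was the highest of the sham samples. The exon reads behind these values were 182, 90 and 109 in sham and 542, 568 and 516 in ONC. Tnfrsf12a was upregulated 3.67-fold (95% interval 2.80 to 4.81), a log2 fold change of 1.88 ± 0.19 (SE), with an adjusted p of 2.35e-06 (edgeR, 3 samples per group).

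A gene was called changed when its adjusted p was under 0.1 and its fold change was above 1.5. Of the 10 genes, 9 exceeded a mean RPKM of 0.3 in sham, in ONC or in both and were tested. The call was made for 1 of these 9 as higher in ONC and for 0 as lower, where 0.827% of the 13670 genes tested were called higher and 0.834% were called lower. At an unadjusted p under 0.05, 2 of the 9 passed, Tnfrsf12a and Tnfsf12, where 16.7% of all genes tested passed. DESeq2 and limma on log2(RPKM + 0.1) each called 1 of the genes as well.

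**Figure D1:**
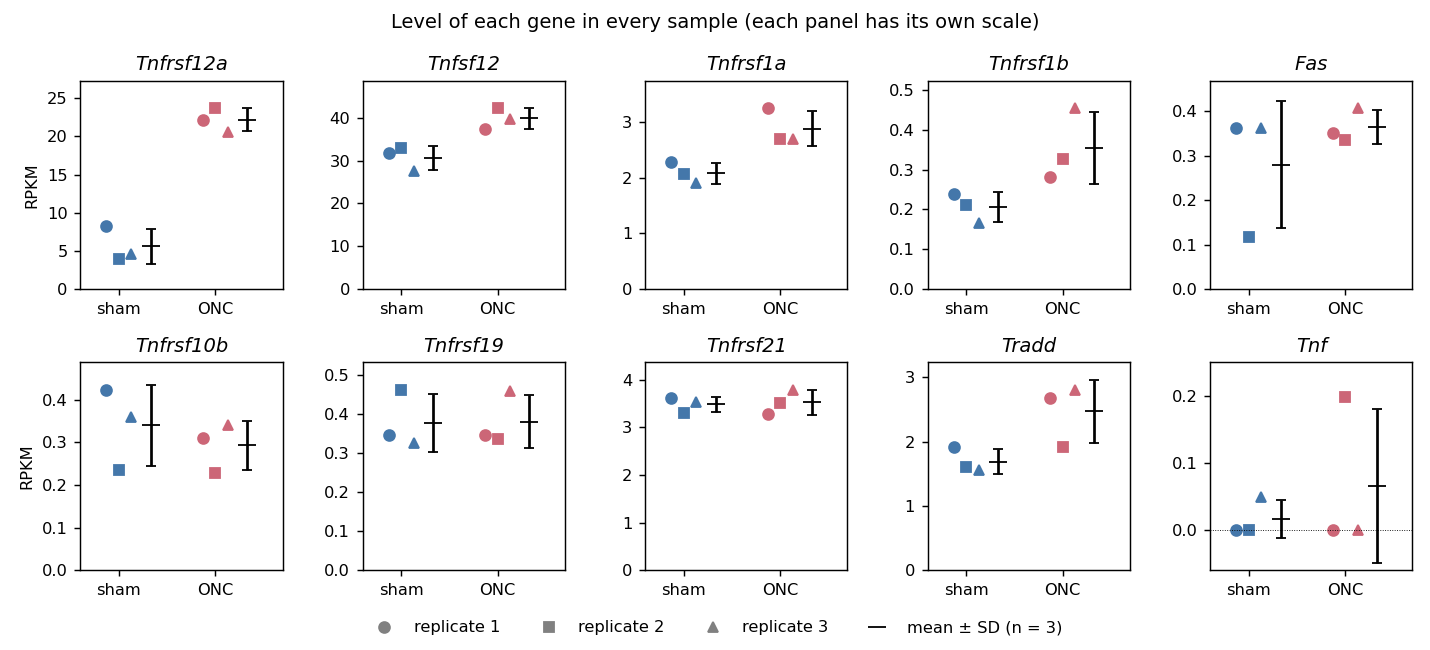
RPKM of each of the 10 genes in the 3 sham (blue) and 3 ONC (red) samples, with a symbol for each replicate and black bars for the mean ± SD. Tnfrsf12a lay between 3.89 and 8.20 in sham and between 20.6 and 23.7 in ONC, while in the panels from Fas to Tnf the ranges of the groups overlapped or met.

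Among the genes called higher in ONC, sham replicate 1 was often the highest sham sample. It was the highest of the 3 sham samples in 58.4% of the 113 genes called higher in ONC and in 33.1% of all genes tested. Without it, the log2 fold change of Tnfrsf12a was 2.23 ± 0.16 (SE, edgeR adjusted p = 1.34e-07). Without sham replicate 2, which had the lowest Tnfrsf12a level, it was 1.66 ± 0.18 (edgeR adjusted p = 7.98e-05).

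Tnfrsf12a has 4 exons with a summed length of 965 bases at chr17:23675445-23677449 (GRCm38 positions). Reads across exon junctions made up 35.2%, 36.7% and 39.4% of its exon reads in sham and 34.5%, 47.0% and 38.4% in ONC. These ranges overlapped (exact permutation test, two-sided p = 0.7). No more than 5 reads in any sample fell in its introns. Its last 80 bases overlap Hcfc1r1, whose exon reads had a log2 fold change of -0.14 (edgeR adjusted p = 0.407), and all exon reads of Tnfrsf12a were assigned to it uniquely.

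Tnfsf12 encodes TWEAK and had the highest RPKM of the 10 genes in both groups, on exon reads that were mostly shared with another row. Its RPKM was 31.8, 32.9 and 27.5 in sham and 37.5, 42.3 and 39.7 in ONC. All ONC samples were above all sham samples, by a margin that was small beside the level. The fold change was 1.19 (95% interval 1.08 to 1.32), with an edgeR adjusted p of 0.0463, and it therefore passed the p threshold without reaching 1.5-fold. It missed the p threshold without sham replicate 1, sham replicate 3, ONC replicate 2 or ONC replicate 3 (edgeR adjusted p up to 0.22). Of all genes tested, 2.38% were higher in ONC at this adjusted p with no fold threshold.

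The Tnfsf12 value rests on reads that were mostly shared with another row. Its 7 exons lie at chr11:69686240-69696098. The row BC096441 at chr11:69682577-69696098 covers all of that span and has the positions of Tnfsfm13, the RefSeq gene that joins Tnfsf12 to Tnfsf13. Unique exon reads of Tnfsf12 were 309, 330 and 274 in sham and 489, 464 and 459 in ONC, between 24.0% and 30.4% of its exon reads. On these reads alone the log2 fold change was 0.41, against 0.25 on all exon reads and 0.26 for BC096441 (edgeR adjusted p = 0.0298). A lncRNA row, 2010012P19Rik, also overlaps Tnfsf12 by 4901 bases, and the library kit did not keep the strand. Levels of the 3 overlapping transcripts could therefore not be separated.

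The level of the receptor relative to its ligand was higher in every ONC sample than in any sham sample. Tnfrsf12a RPKM was 25.8%, 11.8% and 16.8% of Tnfsf12 RPKM in sham and 59.1%, 55.9% and 51.9% in ONC. As a log2 ratio the mean was -2.54 ± 0.56 in sham and -0.85 ± 0.09 in ONC (SD, n = 3), a difference of 1.69. The two-sided exact permutation test gave p = 0.1, and 3 samples against 3 allow no lower value. The level of this ratio depended on the reads counted. On unique exon reads per exon length it was 0.05, -1.06 and -0.52 in sham and 0.96, 1.10 and 0.98 in ONC. All exon reads of Tnfrsf12a were unique, but only 24% to 30.4% of those of Tnfsf12 were. The full exon length was the divisor for both, so this level does not show which gene was higher. The difference between groups on unique reads was 1.53, against 1.69 on all exon reads.

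The share of Tnfrsf12a among the receptors of the family was higher in every ONC sample than in any sham sample. This share rests on the same Tnfrsf12a reads as the fold change and the ratio above, and is no separate evidence of a rise. Of the RPKM summed over 28 receptors, Tnfrsf12a made up 22.9%, 13.9% and 15.4% in sham and 43.5%, 44.4% and 41.8% in ONC. The mean share was 17.4% ± 4.8 in sham and 43.3% ± 1.32 in ONC (SD, n = 3), and the exact permutation test again gave its lowest possible value, p = 0.1. The other 27 receptors together summed to 27.6, 24.1 and 25.3 RPKM in sham and to 28.8, 29.6 and 28.7 in ONC. RPKM as deposited carried a shift of its own, since the median log2 fold change of all genes was 0.13 on the scale of RPKM and 0.01 after TMM normalization.

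**Figure D2:**
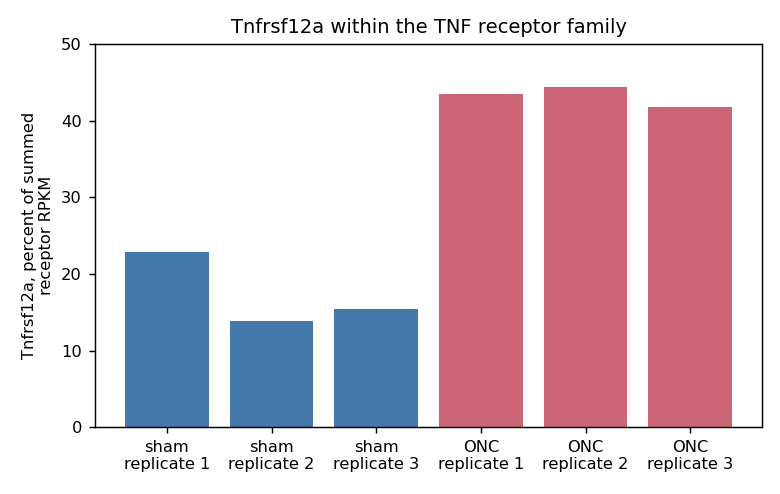
Percent of the RPKM summed over 28 TNF family receptors that came from Tnfrsf12a, as 1 bar per sample (sham blue, ONC red). The sham samples were at 22.9%, 13.9% and 15.4% and the ONC samples at 43.5%, 44.4% and 41.8%.

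Among all genes tested, the mean RPKM of Tnfrsf12a stood at percentile 43.4 in sham and at percentile 80.1 in ONC. Tnfsf12 stood at 87.8 and 90.1. The order of the remaining genes by mean RPKM began with Tnfrsf21, Tnfrsf1a and Tradd in both groups. Tnfrsf21 was above Tnfrsf1a without overlap of the samples, whereas the ranges of Tnfrsf1a and Tradd overlapped. Tnfrsf19, Tnfrsf10b, Fas and Tnfrsf1b followed with means between 0.206 and 0.381, and neighbours in this order overlapped in both groups. Tnf was last. Of the others, Tnfrsf1a lies at chr6:125349723-125362483, Tnfrsf1b at chr4:145212368-145246870 and Fas at chr19:34290659-34327770 (GRCm38). Tnfrsf10b at chr14:69767472-69784411 and Tnfrsf19 at chr14:60963834-61046855 share a chromosome, as Tnfrsf21 at chr17:43016555-43089188 and Tnf at chr17:35199390-35201996 do with Tnfrsf12a, and Tradd lies at chr8:105258575-105264594. None of these 8 genes overlaps another row, and all their exon reads were unique.

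The 2 receptors of TNF itself did not pass the test. Tnfrsf1a, the widely expressed receptor with a death domain, had an RPKM of 2.28, 2.07 and 1.90 in sham and 3.25, 2.70 and 2.70 in ONC. The groups did not overlap, yet the fold change of 1.28 had an interval from 0.969 to 1.68 (edgeR adjusted p = 0.365). Tnfrsf1b, the receptor without a death domain that is prominent in immune and endothelial cells, had 27, 25 and 20 exon reads in sham and 35, 40 and 58 in ONC. Its RPKM was 0.239, 0.212 and 0.166 in sham and 0.281, 0.327 and 0.455 in ONC, again without overlap. The fold change was 1.59 with an interval from 0.896 to 2.81 (edgeR adjusted p = 0.418), and the gene passed the filter on RPKM only through its ONC mean. Tnfrsf1a made up between 85.6% and 92.0% of the RPKM of the pair in every sample.

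Of the genes, 6 exceeded the RPKM minimum in both groups. After TMM normalization, every ONC sample was above every sham sample in 3 of these 6, Tnfrsf12a, Tnfsf12 and Tnfrsf1a, and in 10.7% of all 13160 genes that passed in both groups. The reverse pattern was seen in 0 of the 6 and in 10.9% of the 13160.

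Tradd, the adaptor that the TNF receptor with a death domain recruits, was not called. Its RPKM was 1.92, 1.60 and 1.56 in sham and 2.68, 1.92 and 2.81 in ONC. ONC replicate 2 was at the level of sham replicate 1, and the other ONC samples were higher. The fold change was 1.35 with an interval from 0.908 to 1.99 (edgeR adjusted p = 0.455).

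Fas and Tnfrsf10b, which are both death receptors, gave few reads. Fas, the receptor of Fas ligand, had 15, 5 and 16 exon reads in sham and 16, 15 and 19 in ONC, with an RPKM of 0.362, 0.116 and 0.363 and of 0.351, 0.335 and 0.407. Only sham replicate 2 stood lower, and the fold change of 1.19 had an interval from 0.512 to 2.75 (edgeR adjusted p = 0.874). Like Tnfrsf1b, Fas passed the filter only through its ONC mean. Tnfrsf10b, a mouse receptor of TRAIL, had an RPKM of 0.424, 0.236 and 0.360 in sham and 0.311, 0.228 and 0.340 in ONC. It passed the filter only through its sham mean. The groups overlapped, with a fold change of 0.793 (interval 0.414 to 1.52, edgeR adjusted p = 0.763). Tnfrsf10b had 18 to 31 exon reads per sample, and its interval held changes of 1.5-fold in either direction.

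Tnfrsf21, also known as death receptor 6 and expressed by neurons, was measured with 287 to 357 exon reads per sample. Its RPKM was 3.61, 3.30 and 3.52 in sham and 3.27, 3.50 and 3.79 in ONC. The groups overlapped fully with a fold change of 0.930, and its interval, 0.774 to 1.12, held no change of 1.5-fold in either direction (edgeR adjusted p = 0.727). Tnfrsf19, or TROY, a receptor of the nervous system that can take part in the response of axons to myelin inhibitors, had an RPKM of 0.346, 0.463 and 0.325 in sham and 0.347, 0.336 and 0.460 in ONC. The fold change was 0.930 with an interval from 0.572 to 1.51 (edgeR adjusted p = 0.911).

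Tnf was close to the limit of detection. Exon reads were 0, 0 and 2 in sham and 0, 8 and 0 in ONC, and 4 of the 8 reads in ONC replicate 2 crossed an exon junction. A count of 0 allows up to 3 reads, an RPKM between 0.0714 and 0.0806 in the 4 samples without a read. The gene did not pass the filter, and no fold change is given. This limit covers counting error only.

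**Figure D3:**
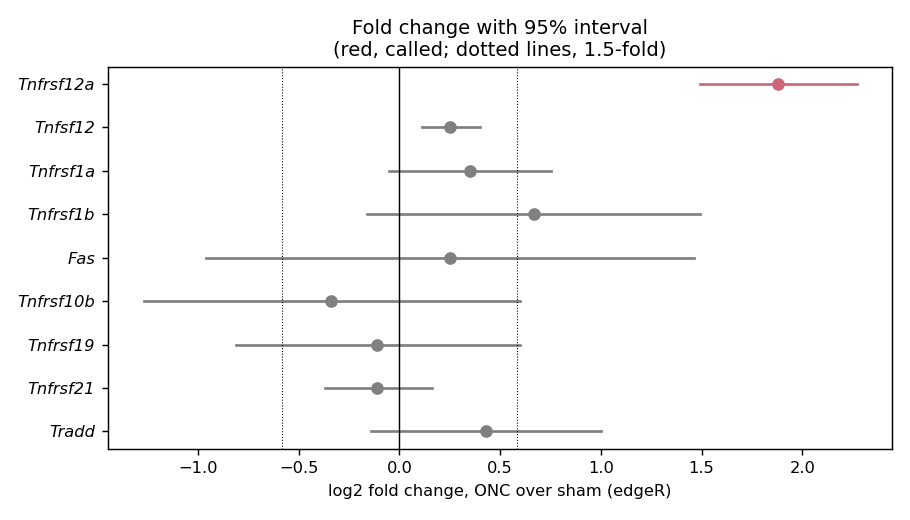
Log2 fold change of ONC over sham for the 9 tested genes, with 95% intervals from edgeR, a solid line at 0 and dotted lines at 1.5-fold in either direction. The interval of Tnfrsf12a, 1.49 to 2.27, lay above the dotted line, and the intervals of all others crossed 0 except that of Tnfsf12.

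Reads on introns, which come mainly from unprocessed transcripts, could be tested for 2 of the 10 genes. The intron log2 fold change was 0.34 ± 0.24 for Tnfsf12 and -0.31 ± 0.62 for Tnfrsf21 (SE; edgeR adjusted p = 0.499 and 0.84). None was called, and none had an unadjusted p under 0.05, where 2.61% of 13391 genes were called on intron reads. No gene was called on intron reads without sham replicate 2 or without ONC replicate 2. The Tnfsf12 value could not be computed on unique intron reads, and its introns lie in the span of the overlapping rows. Tnfrsf12a had too few intron reads for the test.

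The rest of the pathway was read from 6 lists of other receptors, other ligands, sheddases, receptor complex proteins, NF-kB proteins and genes known to be induced by TNF. Of 107 genes with a row, 63 were tested. None was called higher and 1 was called lower, Mmp9. At an unadjusted p under 0.05, 7 of the 63 passed (16.7% of all genes tested), and the median log2 fold change was 0.03 beside 0.01 for all genes tested. DESeq2 called 1 and limma on log2(RPKM + 0.1) called 0. The count was 2 without sham replicate 1 or ONC replicate 3, with Cxcl2 added, and 2 without ONC replicate 1, with Lcn2 added.

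Of 21 other receptors, 7 were tested and 0 were called by edgeR, DESeq2 or limma, and 0 had an unadjusted p under 0.05. Ngfr, the low-affinity neurotrophin receptor, had the highest level with 7.85 ± 0.637 RPKM in sham and 9.34 ± 0.678 in ONC (SD, n = 3), and a log2 fold change of 0.13 (edgeR adjusted p = 0.547). Tnfrsf18, a receptor best known from T cells, had 3.61 ± 0.143 and 3.33 ± 0.474 RPKM, and a log2 fold change of -0.25 (edgeR adjusted p = 0.647). Only sham replicate 2 had reads across its exon junctions, 10 of 86 exon reads. In each sample 48 to 80 reads crossed a border of exon and intron. How much of its level came from spliced transcripts was not tested, and Tnfrsf18 is among the 28 receptors summed above. The 14 receptors that were not tested had between 2 and 108 exon reads over all samples.

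Of 16 other ligands, 3 were tested and 0 were called by edgeR, DESeq2 or limma, with 0 at an unadjusted p under 0.05, and 5 had no exon read in any sample. Tnfsf13, the ligand APRIL, had an RPKM of 0.389, 2.51 and 1.80 in sham and 0.659, 2.30 and 2.59 in ONC, so the spread within each group was larger than the difference between them. It shares its locus with the BC096441 row described for Tnfsf12. Tnfsf9, the ligand of 4-1BB, had a log2 fold change of -0.34 (edgeR adjusted p = 0.693). Tnfsf12 was the only ligand of the family with a level above 3 RPKM.

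Sheddases release ligands and receptors from the membrane. The 5 genes tested from the list of sheddases and related proteins included 0 called by edgeR, DESeq2 or limma. None of the 5 had an unadjusted p under 0.05. Adam10 stood at 12.0 ± 0.367 RPKM in sham and 12.6 ± 1.61 in ONC (SD, n = 3) and Furin at 7.74 ± 0.308 and 8.39 ± 0.750. Their log2 fold changes were -0.05 and -0.01. The median of the list was -0.01.

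Inside the cell, 26 of 30 genes of the receptor complexes were tested and 0 were called by edgeR, DESeq2 or limma, while 3 had an unadjusted p under 0.05, which 16.7% of all genes tested had. The median log2 fold change was 0.02. The largest was 0.85 in Traf4 (edgeR adjusted p = 0.197), a gene named after its values were seen. Of all settings, only edgeR on the scaling of RPKM called Traf4. Xiap, an inhibitor of caspases, had the highest level, 90.1 ± 3.88 RPKM in sham and 82.7 ± 5.23 in ONC (SD, n = 3), and its log2 fold change of -0.24 had an edgeR adjusted p of 0.0218 without reaching 1.5-fold. Tnfaip3, the ubiquitin-editing inhibitor of NF-kB known as A20, had 66.3 ± 3.25 and 67.2 ± 5.25 RPKM and a log2 fold change of -0.10 (edgeR adjusted p = 0.444). Of the NF-kB proteins, 12 of 13 were tested, 0 were called by edgeR, DESeq2 or limma, and 1 had an unadjusted p under 0.05. Chuk, a subunit of the IkB kinase, had a log2 fold change of 0.11 (edgeR adjusted p = 0.558), and Nfkbia, the inhibitor that NF-kB itself induces, had 0.25 (edgeR adjusted p = 0.319).

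Of 22 genes known to be induced by TNF, 10 were tested and 1 was called. At an unadjusted p under 0.05, 3 of the 10 passed, where 16.7% of all genes tested passed. The 12 that were not tested had between 0 and 87 exon reads over all samples. Mmp9, a matrix metalloproteinase, was downregulated, from 5.65, 5.20 and 5.31 RPKM in sham to 3.68, 3.56 and 3.45 in ONC, a log2 fold change of -0.72 ± 0.12 (SE, edgeR adjusted p = 0.000918). Limma on log2(RPKM + 0.1) gave -0.58 and did not call it. The genes of the list with the highest level, Ier3 and Sod2, had log2 fold changes of 0.01 and -0.23 (edgeR adjusted p = 0.974 and 0.0658). The largest value in the list was that of Cxcl2, a chemokine, with a log2 fold change of 2.13 that was not called (edgeR adjusted p = 0.186). Its exon reads were 18, 0 and 4 in sham and 39, 69 and 5 in ONC, so the groups overlapped. It was also called without a filter on RPKM and on the scaling of RPKM. It is named for its size, after its values were seen.

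**Figure D4:**
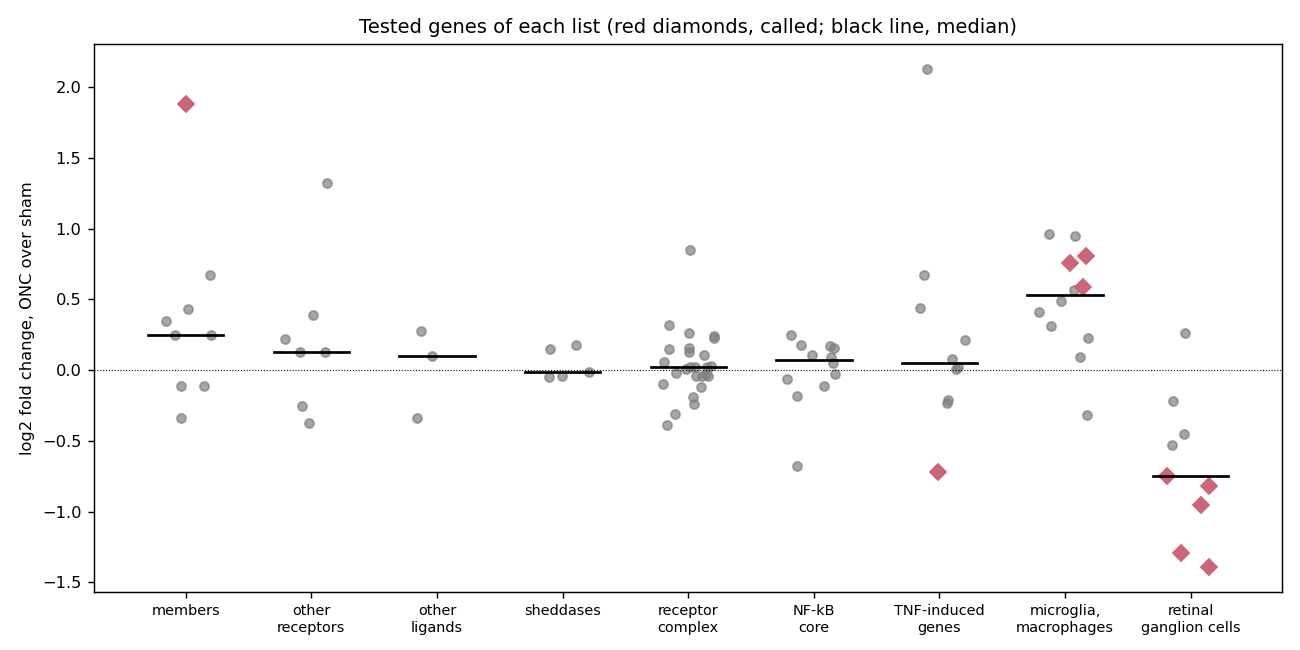
Log2 fold change of ONC over sham for each tested gene of the pathway lists and of the marker lists of microglia and RGCs, with called genes as red diamonds and the median of each list as a black line. Tnfrsf12a at 1.88 was the called value among the members, Mmp9 at -0.72 the called value in the pathway lists, and the RGC markers lay mostly below 0.

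Most of the called marker genes were those of microglia with macrophages and of RGCs. In whole retina, fewer cells of a type and less RNA per cell cannot be told apart. Of 12 markers of microglia and macrophages, all were tested, and the median log2 fold change was 0.53. The log2 fold change was above 0 in 11 of the 12 and was -0.32 in Aif1. Of the 12, 3 were called higher (Itgam, C1qa and C1qb), where 0.827% of all genes tested were called higher. Without sham replicate 2, ONC replicate 2 or ONC replicate 3, 1 of them was called. Their summed RPKM ranged from 33.8 to 38.7 in sham and from 53.4 to 60.0 in ONC. Of 9 RGC markers, 5 were called lower, where 0.834% of all genes tested were called lower. A log2 fold change above 0 was seen in 1 of the 9, at 0.26. The summed RPKM of the 9 ranged from 432 to 451 in sham and from 320 to 337 in ONC. The part of either cell type in the Tnfrsf12a and Tnfrsf1b values was not tested.

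The remaining marker lists held 1 called gene. Rod markers were abundant in every sample, as the label retina calls for. Their summed RPKM ranged from 18575 to 19316 in sham and from 20300 to 21642 in ONC. Of the 5 rod markers, 2 had an edgeR adjusted p under 0.1 without reaching 1.5-fold. The rod list included 0 called genes, as did the lists for Müller glia, astrocytes, endothelium with pericytes, pigment epithelium and blood leukocytes by edgeR. At an unadjusted p under 0.05 these lists held 2, 1, 1, 0, 0 and 0 genes, and DESeq2 and limma called 0. Of 10 leukocyte markers, 4 had no read in any sample. Of 3 red blood cell markers, Hba-a1 was called lower, though not by DESeq2 or without sham replicate 1, and the summed RPKM ranged from 75.0 to 170.0 in sham and from 55.4 to 78.5 in ONC.

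The genes whose pattern over the 6 samples was most like that of Tnfrsf12a were sought among 11975 other genes, all with a mean RPKM over 1 in one group or both. Likeness was the root mean square difference of the centred log2 values, which include the size of the change. Phgdh, the first enzyme of serine synthesis, came first at 0.06, then Lgals3, or galectin-3, at 0.10. Gm13889 at 0.19, the cell cycle inhibitor Cdkn1a at 0.22 and the neuropeptide gene Adcyap1 at 0.23 followed. Phgdh had an RPKM of 3.77, 1.87 and 2.42 in sham and 10.6, 11.9 and 10.5 in ONC, with sham replicate 1 the highest of the sham samples, as for Tnfrsf12a. Without sham replicate 3, 2 of these 5 genes were still among the first 5. With 6 samples in 2 groups, and with genes chosen by their pattern over these same samples, this likeness is a description.

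**Figure D5:**
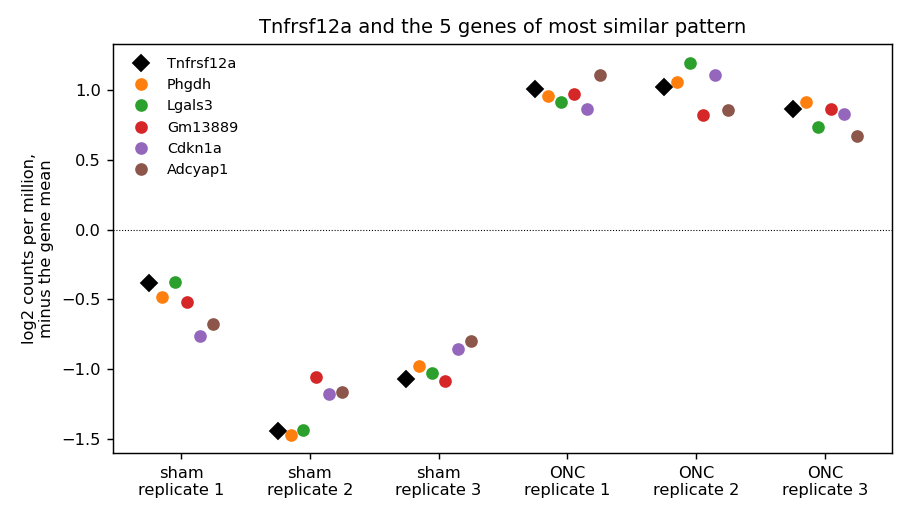
Log2 normalized counts of Tnfrsf12a (black diamonds) and the 5 genes of most similar pattern (coloured points) in each sample, after subtraction of the mean of each gene. In each gene all 3 sham samples lay below 0 and all 3 ONC samples above it, and sham replicate 1 was the highest sham sample of all 6 genes. The 5 genes were chosen by their likeness to Tnfrsf12a over these same samples, so a shared pattern was built in.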

How the data were processed

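RNA-seq libraries were made with a TruSeq kit that keeps no strand, from 3 ONC and 3 sham pools, and read as 100-base pairs. Reads were mapped by the authors in CLC Genomics Workbench with up to 2 mismatches. Per sample, the authors deposited gene-level read counts over exons and over whole genes, as total and unique reads. They also deposited RPKM values, whose divisor includes reads on introns. The sources name mm9, but the deposited positions match GRCm38: 73.3% of the genes shared with RefSeq GRCm38.p6 have its start or end, against 1.24% for GENCODE M1 on NCBIM37. Positions are given as deposited. The authors' mean columns were not used.

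Exon counts per sample summed to between 17343945 and 20358008, of which 1819 to 3033 fell on the 10 genes. Low counts limit precision most for Tnf, Fas, Tnfrsf10b and Tnfrsf1b. Genes with a mean RPKM above 0.3 in a group (13670) were tested with edgeR 4.0.16 (TMM, quasi-likelihood, group as the only term, R 4.3.3) and Benjamini-Hochberg adjustment over all of them. Genes were called at an adjusted p below 0.1 with more than 1.5-fold change, the thresholds in the methods of the study. The SE was the log2 fold change divided by the square root of F. The test was checked on simulated data. Single ratios were compared by exact permutation tests (scipy 1.17.1). The alternatives were DESeq2 1.42.0, limma 3.58.1, other scalings, filters and reads, a replicate block, and leaving out each sample. Motifs were searched in RefSeq promoters.

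The genes and lists were chosen with earlier results of these data known. All 10 genes are named with their values. Of each pathway list, the called genes and the 2 with the highest mean RPKM are named, together with the 5 genes most like Tnfrsf12a. Sppl2a, Sppl2b, Traf5, Hbb-bt and Hbb-bs were not analysed here.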

Additional observations from a re-analysis of the deposited data

How the results depend on the processing

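Tnfrsf12a was called under all 15 alternatives, with a log2 fold change between 1.66 and 2.23, and the number of the 10 genes called was 1 in each. The log2 ratio of Tnfrsf12a to Tnfsf12 differed between groups by 1.42 to 1.98 when samples were left out. Tnfsf12 kept an adjusted p under 0.1 in 11 of 15 alternatives, up to 0.22. Among the genes without a call, Tnfsf12, Tnfrsf1a, Tnfrsf1b, Tnfrsf10b and Tradd kept their direction on exon reads in every alternative that tested them. The directions of Fas, Tnfrsf19 and Tnfrsf21 were not stable. Fas ranged from -0.14 (without sham replicate 2) to 0.53 when samples were left out, and Tnfrsf19 from -0.27 to 0.04 (without sham replicate 2). Tnfrsf19 stood at 0.01, 0.01 and 0.00 on the scaling of RPKM and with limma at pseudocounts of 0.1 and 1. Tnfrsf21 stood at 0.02, 0.02 and 0.01 on the same 3. On introns Tnfrsf21 ranged from -0.56 to 0.06 (without ONC replicate 3). Called genes numbered 227 (113 higher, 114 lower), 350 (263 and 87) on the scaling of RPKM, 217 and 65 with limma at a pseudocount of 0.1, 126 and 39 at 1, and 153 to 353 without single samples, the highest without ONC replicate 1. On introns 349 genes were called, 954 without a filter, and 0 to 878 without single samples: 0 without sham replicate 2 or ONC replicate 2, 1 without ONC replicate 3, 86 without sham replicate 3 and 878 without sham replicate 1. The 1 pathway gene became 3 on the scaling of RPKM (Traf4, Cxcl2 and Mmp9), 2 without a filter (Cxcl2 and Mmp9), 0 with limma at either pseudocount, and 1 to 2 without single samples. Of microglia markers, 6 were called on the scaling of RPKM and 1 without sham replicate 2, ONC replicate 2 or ONC replicate 3. Of the 5 genes most like Tnfrsf12a, 2 remained without sham replicate 3 and 4 or 5 otherwise, an alternative chosen after the data were seen, as were those of the receptor share (24.1 to 28.6 percentage points) and the marker lists. The replicate numbers did not pair the samples (correlations of -0.05, -0.03 and 0.00), and the fit with the replicate block called 222 genes and changed no call of the 10 genes. The cause of these differences was not tested. Exon reads were fewest for Tnf, Fas, Tnfrsf10b and Tnfrsf1b, which limits their precision.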
